A study of Prunus avium with 6 samples.

Results

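Ripe fruit of the sweet cherry (Prunus avium) cultivars ‘Lapins’ and ‘Rainier’ was compared through 2 RNA libraries, 1 for each cultivar, out of 6 libraries in the series. ‘Lapins’ fruit, listed as red mahogany, came from trees at Los Andes, and ‘Rainier’ fruit, listed as bicolour, came from San Francisco de Mostazal. Both were harvested in the 2012 season at commercial maturity. No treatment is named for either group. The other 4 libraries are leaves of both cultivars and leaves and fruit of ‘Bing’, a dark mahogany cultivar grown at Quillota. Cultivar and site cannot be told apart, since each cultivar was sampled at its own site. The sources used here do not say how many trees or fruits went into a library, or which part of the fruit was taken. With 1 library a side there is no replicate check, and every interval below covers counting error alone.

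The red of a sweet cherry comes from anthocyanins, flavonoid pigments built from phenylalanine through the phenylpropanoid pathway. Flavonoid 3′-monooxygenase, a cytochrome P450, adds the hydroxyl group that sets apart the cyanidin type, the main anthocyanin class of cherries. ‘Rainier’ fruit is yellow with a red blush, while ‘Lapins’ is red throughout. During ripening the fruit also remodels its walls: cellulose synthase makes cellulose, galacturonosyltransferases build pectin, and xyloglucan endotransglucosylase hydrolases cut and rejoin xyloglucan. Allene oxide synthase commits fatty acid hydroperoxides to jasmonate, a hormone of wounding and defence.

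The values are unique reads, those that matched a single predicted coding sequence, taken as a share of the library's summed unique reads. The sums were 74371 reads in ‘Lapins’ fruit and 83953 in ‘Rainier’ fruit. Shares are given per 10000 unique reads, and 3 reads, about the most that a library at 0 could hide, came to 0.403 and 0.357 per 10000. A gene was called when the Z-test on proportions gave p at or under 0.05, the shares were at least 2-fold apart and 1 of the libraries held at least 10 reads. Names were available for 428 genes on 13 scaffolds. They are the best database match of each predicted gene and say nothing of its close relatives. All other genes are given by identifier or by count, and no sequence is shown.

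Leaf markers were low in both fruit libraries. Genes of the cell wall list, taken as the fruit markers, summed to 17.7 and 20.6 per 10000 in ‘Lapins’ and ‘Rainier’ fruit, against 7.14 and 5.41 in leaf. They were read in leaf too, and the list was chosen with earlier results of these data known. It is thus no independent check of the tissue. The 4 leaf markers (a chlorophyll a-b binding protein, a geranylgeranyl gene of the chlorophyll side chain, a ribulose-phosphate gene of the Calvin cycle and a photosynthetic NDH subunit) summed to 146 reads in ‘Lapins’ leaf and 167 in ‘Rainier’ leaf, but to 8 in ‘Lapins’ fruit and 3 in ‘Rainier’ fruit, or 1.08 and 0.357 per 10000. The chlorophyll a-b binding gene was at 0 and 1 reads in the fruits, and the NDH subunit at 0 in both. Of the list of 10 seed, embryo and reproductive genes, 4 had a fruit read, with 3 reads summed in ‘Lapins’ and 10 in ‘Rainier’. The gene POLLEN DEFECTIVE IN GUIDANCE 1 took 1 and 7 of these. ‘Bing’ fruit had 11 reads of it, or 0.946 per 10000 against 0.834 in ‘Rainier’ fruit. The part of these low marker reads in the results below was not tested.

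Most reads of either fruit library fell on genes read in both, which does not make their shares equal. Reads fell on 9276 genes in ‘Lapins’ and 9600 in ‘Rainier’, and with both thinned to 70058 reads on 9108 and 9062. Of the 11495 genes read in either library, 7381 were read in both, and these held 95.9% of the ‘Lapins’ reads and 95.5% of the ‘Rainier’ reads. Genes read in ‘Lapins’ alone numbered 1895, of which 66.7% had 1 read, and those in ‘Rainier’ alone 2219, of which 62.3% had 1 read. Only 6 genes in each of these groups reached 10 reads. ‘Rainier’ fruit gave more of its reads to its most abundant genes. Its 10 most read genes took 16.5% of the library against 12.3% in ‘Lapins’, and 8 genes stood in both lists of 10. The most read gene of both libraries, Pav_sc0000058.1_g360.1.br, which has no description here, had 2375 reads in ‘Lapins’ fruit (319 per 10000) and 4027 in ‘Rainier’ fruit (480 per 10000). The ‘Rainier’ share was 1.50 times higher (exact 95% interval 1.43 to 1.58). ‘Bing’ fruit held 2448 reads of it, and the leaf libraries 4 to 13.

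Of the 2144 genes with at least 10 reads in 1 of the fruit libraries, 340 (15.9%) were called. The share was higher in ‘Lapins’ for 188 genes (8.77%) and higher in ‘Rainier’ for 152 (7.09%). The side with more calls turned, to 159 against 175, when the library sums left out the 10 most read genes of either library. The median ratio was 3.03 over the 182 genes higher in ‘Lapins’ that had a ‘Rainier’ read, and 3.37 over the 146 higher in ‘Rainier’ that had a ‘Lapins’ read. The genes higher in ‘Lapins’ took 8.07% of the reads of ‘Lapins’ fruit and 2.64% of those of ‘Rainier’ fruit. The genes higher in ‘Rainier’ took 6.26% of the reads of ‘Rainier’ fruit and 2.05% of those of ‘Lapins’ fruit. Fewer cells of a type and less RNA per cell cannot be told apart in such bulk libraries. Many calls rested on few reads: 174 (51.2%) had under 20 reads in the library where the gene was higher, and 12 were at 0 in the other. The exact interval of the ratio lay wholly beyond 2-fold for 32 genes, 22 higher in ‘Lapins’ and 10 higher in ‘Rainier’. For 253 genes (11.8% of the 2144) it lay wholly within 2-fold, so that a difference of 2-fold or more lay outside the counting error. With the p adjusted over all genes of the files, 29 calls were left, 22 higher in ‘Lapins’ and 7 higher in ‘Rainier’, against the 188 and 152 above.

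**Figure D1:**
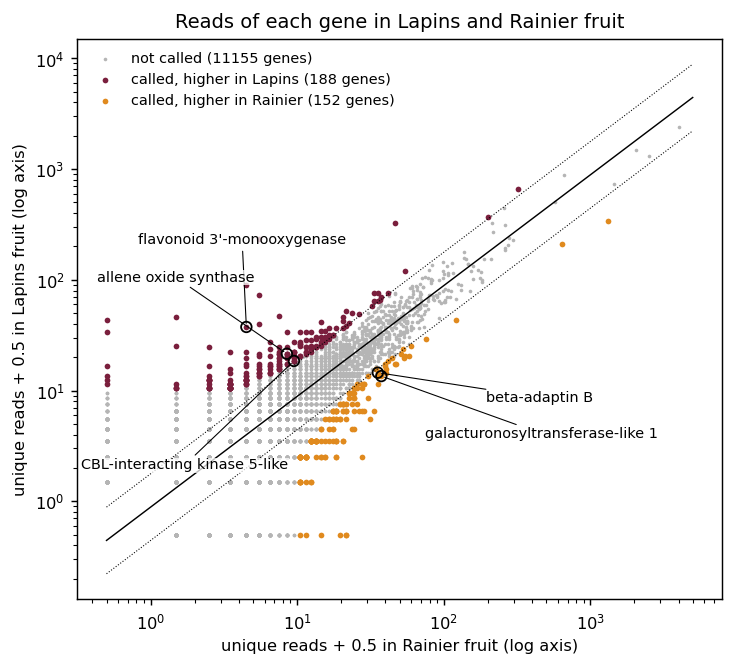
Unique reads of each gene read in either library, with 0.5 added, in ‘Rainier’ fruit (horizontal, log axis) and ‘Lapins’ fruit (vertical, log axis), where the solid line marks equal shares, the dotted lines 2-fold differences and the circles the 5 described genes that were called. Of the 11495 genes, the 1895 read in ‘Lapins’ alone and the 2219 read in ‘Rainier’ alone lie outside the dotted lines, most of them at 1 read. Called genes number 188 above and 152 below.

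Of the 428 described genes, 196 had a read in either fruit library, 39 had at least 10 reads in 1 of them, and 5 of these 39 were called (12.8%, against 15.9% of all genes with that depth). Flavonoid 3′-monooxygenase, allene oxide synthase and a CBL-interacting protein kinase were higher in ‘Lapins’. Galacturonosyltransferase-like 1 and beta-adaptin B were higher in ‘Rainier’. A further 5 of the 39 had an interval wholly within 2-fold, among them chorismate mutase 2, xyloglucan endotransglucosylase hydrolase 28 and transmembrane 9 superfamily member 8. The remaining 29 were neither called nor bounded within 2-fold at this depth.

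Flavonoid 3′-monooxygenase (Pav_sc0000877.1_g1900.1.br) had the largest ratio of the 39. It had 37 reads in ‘Lapins’ fruit and 4 in ‘Rainier’ fruit, or 4.98 and 0.476 per 10000. The share was 10.4 times higher in ‘Lapins’ (exact 95% interval 3.75 to 40.3), and this was the only described gene of the 39 whose interval lay wholly beyond 2-fold and the only 1 of the 5 still called with the p adjusted over all genes. ‘Bing’ fruit, the third fruit library, had 32 reads (2.75 per 10000), above ‘Rainier’ and below ‘Lapins’. Leaves of ‘Bing’, ‘Lapins’ and ‘Rainier’ had 6, 5 and 4 reads, or 0.674, 0.714 and 0.570 per 10000. The share of ‘Rainier’ fruit was thus at the level of the leaves, with intervals that overlap all 3, while ‘Lapins’ and ‘Bing’ fruit lay above them. No read of this gene in either fruit was a non-specific match. A minimum of 10 reads in both libraries ends the call, since ‘Rainier’ held 4.

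No other member of the pigment list was called. The list held 13 described flavonoid, phenylpropanoid and carotenoid genes, 4 with fruit reads, 2 with at least 10 reads in 1 library, and 1 of these was called. Chorismate mutase 2 (Pav_sc0000890.1_g420.1.mk), which turns chorismate toward phenylalanine and tyrosine, was read 59 times in ‘Lapins’ fruit and 75 times in ‘Rainier’ fruit, or 7.93 and 8.93 per 10000. The ratio was 0.888 (0.620 to 1.27), which leaves a 2-fold difference outside the counting error. In leaf the same gene had 9 reads in ‘Lapins’ and 36 in ‘Rainier’ and was called. The difference between its fruit and leaf ratios gave an adjusted p = 0.0502 in the Wald test described further on, just above the threshold. A carotenoid cleavage dioxygenase 1 had 5 and 4 reads. Summed over the list, shares were 14.1 and 10.2 per 10000, a ratio of 1.38 (1.03 to 1.85). Without the monooxygenase the sums were 68 and 82 reads, and the ratio turned to 0.936 (0.669 to 1.31). Chorismate mutase 2 held 59 and 75 of these reads, so this ratio is mostly that of 1 gene and says little of other pigment genes.

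The CYP82 family of cytochrome P450 genes, 9 of them on a single scaffold, oxidises specialised metabolites in other plants. Reads were found for 3 members in fruit, and none of the 2 with at least 10 reads was called. Pav_sc0000890.1_g1250.1.mk had 52 reads in ‘Lapins’ fruit and 44 in ‘Rainier’ fruit, a ratio of 1.33 (0.876 to 2.04), and 128 in ‘Bing’ fruit. Pav_sc0000890.1_g1120.1.mk had 15 and 9, a ratio of 1.88 (0.771 to 4.88), and Pav_sc0000890.1_g1200.1.mk had 1 and 0. In leaf both of the first were called higher in ‘Lapins’, at 10 against 2 reads and 14 against 3. The fruit and leaf ratios did not pass the test of their difference (adjusted p = 0.351 and 0.511 in the Wald test). Some reads of Pav_sc0000890.1_g1250.1.mk, 6 and 4, were non-specific, and the close relatives could share reads.

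In the cell wall list of 20 genes, 11 had fruit reads, 5 had at least 10 in 1 library and 1 was called. Galacturonosyltransferase-like 1 (Pav_sc0000890.1_g1520.1.mk), of a family related to the galacturonosyltransferases of pectin and known in Arabidopsis for a role in xylan synthesis, had 13 reads in ‘Lapins’ fruit and 37 in ‘Rainier’ fruit, or 1.75 and 4.41 per 10000. The share was 2.52 times higher in ‘Rainier’ (1.31 to 5.17). ‘Bing’ fruit had 10 reads, 0.860 per 10000, and the 3 leaves 1 to 3, so that ‘Rainier’ fruit stood above all 5 other libraries in its share. Cellulose synthase A catalytic subunit 3 had 43 and 68 reads (5.78 and 8.10 per 10000). Its ratio of 0.714 (0.476 to 1.06) was not called. Xyloglucan endotransglucosylase hydrolase 28 had 35 and 36 reads, a ratio of 1.10 (0.669 to 1.80), wholly within 2-fold. In leaf this gene had 15 reads in ‘Lapins’ and 6 in ‘Rainier’ and was called. The difference between its fruit and leaf ratios did not pass (adjusted p = 0.383 in the Wald test). UDP-glucose 6-dehydrogenase 5, which makes the UDP-glucuronate that pectin and xylan draw on, had 16 and 8 reads and was not called (2.26, 0.912 to 6.09), and ‘Bing’ fruit had none. Over the list the shares summed to 17.7 and 20.6 per 10000, a ratio of 0.861 (0.681 to 1.09). The median log2 ratio of the 5 was 0.13, against 0.04 over the 3270 genes with at least 10 reads summed over the fruits.

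Hormone genes were represented by 20 described members, 10 with fruit reads and 3 with at least 10 reads in 1 library. Allene oxide synthase (Pav_sc0000890.1_g1300.1.mk) had 21 reads in ‘Lapins’ fruit and 8 in ‘Rainier’ fruit, or 2.82 and 0.953 per 10000, a share 2.96 times higher in ‘Lapins’ (1.26 to 7.74). The call was lost under 4 of 12 alternatives: 10 reads in both libraries, either adjustment of the p, and a ratio of at least 3. ‘Bing’ fruit lay between them with 17 reads, 1.46 per 10000. In leaf the order was turned, with 11 reads in ‘Lapins’ and 21 in ‘Rainier’ (1.57 and 2.99 per 10000), which was not a call. The fruit and leaf ratios of this gene gave an adjusted p = 0.0502 in the Wald test, just short of the threshold. A TIFY 6B-like gene, of the family of jasmonate repressors, had 15 and 15 reads, a ratio of 1.13 (0.514 to 2.48). A TMK1-like receptor kinase, of a family that takes part in auxin signalling, had 14 and 19 reads (0.832, 0.386 to 1.75).

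The membrane trafficking list held 21 genes, 15 with fruit reads, 5 with at least 10 in 1 library, and 1 called. Beta-adaptin B (Pav_sc0000886.1_g360.1.mk), a subunit of the adaptor complexes that sort cargo into clathrin-coated vesicles, had 14 reads in ‘Lapins’ fruit and 35 in ‘Rainier’ fruit, or 1.88 and 4.17 per 10000. The share was 2.21 times higher in ‘Rainier’ (1.16 to 4.46). ‘Bing’ fruit, with 38 reads and 3.27 per 10000, was nearer to ‘Rainier’, and leaves of ‘Lapins’ and ‘Rainier’ had 9 and 7. Transmembrane 9 superfamily member 8, of the Golgi and endosome membranes, had nearly equal shares, 8.20 and 8.22 per 10000 from 61 and 69 reads, a ratio of 0.998 (0.695 to 1.43). Exocyst component SEC3A, which tethers secretory vesicles, had 10 and 13 reads (0.868, 0.341 to 2.14).

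A CBL-interacting protein kinase 5-like gene (Pav_sc0000890.1_g510.1.mk), of a family that relays calcium signals, stood at the edge of the criteria. It had 18 reads in ‘Lapins’ fruit and 9 in ‘Rainier’ fruit, or 2.42 and 1.07 per 10000, a ratio of 2.26 with an exact interval of 0.963 to 5.70 that includes 1. Its call was lost under 7 of 12 alternatives, Fisher's exact test among them, and ‘Bing’ fruit had 16 reads. Just outside the criteria, diacylglycerol kinase 2, which turns the lipid messenger diacylglycerol into phosphatidic acid, had 23 and 13 reads and a ratio just under 2-fold (0.970 to 4.29).

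**Figure D2:**
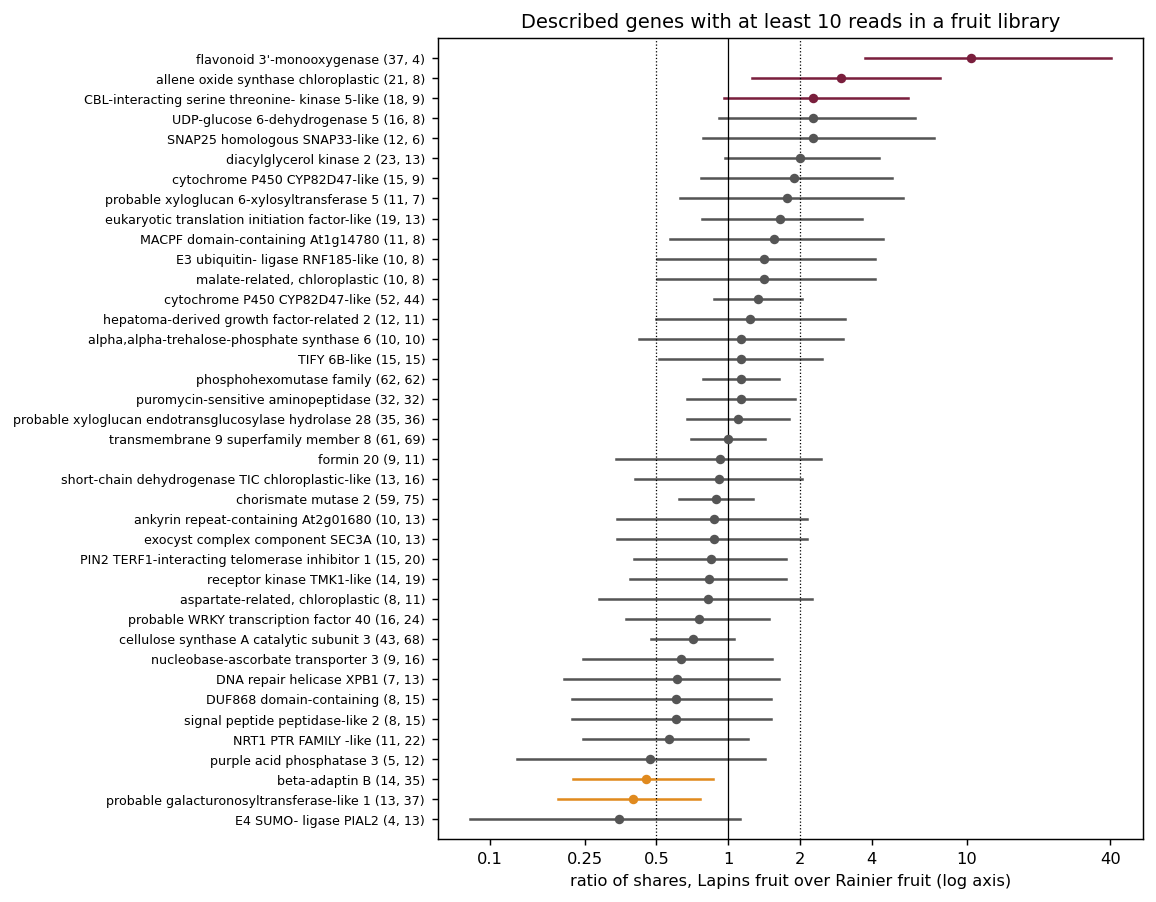
Ratio of the share in ‘Lapins’ fruit to that in ‘Rainier’ fruit (log axis) for the 39 described genes with at least 10 reads in 1 of the libraries, with exact 95% intervals for counting error and, in brackets, the reads in ‘Lapins’ and ‘Rainier’. The 3 dark red genes were called higher in ‘Lapins’ and the 2 orange genes higher in ‘Rainier’, and flavonoid 3′-monooxygenase, at 10.4, is the only gene whose interval lies wholly outside the dotted 2-fold lines.

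The other lists had no member called. In sugar, organic acid and amino acid metabolism (14 genes, 8 read, 4 with at least 10 reads), a gene of the phosphohexomutase family (Pav_sc0000893.1_g010.1.mk) had 62 and 62 reads, a ratio of 1.13 (0.781 to 1.63) that lay within 2-fold, and trehalose-phosphate synthase 6 had 10 and 10. In the transport list (20 genes, 8 read, 2 with at least 10 reads), an NRT1 PTR family transporter had 11 reads in ‘Lapins’ and 22 in ‘Rainier’ (0.564, 0.247 to 1.21), and nucleobase-ascorbate transporter 3 had 9 and 16 (0.635, 0.247 to 1.53). The transport sums, 5.38 and 7.50 per 10000, had a ratio of 0.717 (0.470 to 1.08). In the ubiquitin and protein turnover list (25 genes, 13 read, 3 with at least 10 reads), a puromycin-sensitive aminopeptidase had 32 and 32 reads, within 2-fold, and the SUMO ligase PIAL2 had 4 and 13 (0.347, 0.0825 to 1.12). In the lipid signalling list (15 genes, 5 read, 2 with at least 10 reads), purple acid phosphatase 3 had 5 and 12 reads (0.470, 0.130 to 1.43). Its name alone does not mark it as a lipid signalling gene. WRKY transcription factor 40, a regulator of stress responses and the only member of the defence list (30 genes, 14 read) with at least 10 fruit reads, had 16 and 24 reads in fruit (0.753, 0.374 to 1.48). In leaf it had 10 in ‘Lapins’ and 24 in ‘Rainier’, where it was called. Its fruit and leaf ratios did not pass the test of their difference (adjusted p = 0.494 in the Wald test). A translation initiation factor had 19 and 13 reads (1.65, 0.773 to 3.63), and its list of 18 translation and RNA genes summed to a ratio of 1.57 (1.00 to 2.48). The lists of chloroplast genes (18 genes, 10 read) and of transcription factors and chromatin genes (31, 16 read) had 1 member each with at least 10 reads, and light and clock genes (9, 5 read) and seed genes had none. Over all 64 described genes with at least 10 reads summed over the fruits, the median log2 ratio was 0.17.

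Some described genes were read in 1 fruit library and not in the other. A mitogen-activated kinase 4-like gene and a 3-hydroxyisobutyryl hydrolase each had 6 reads in ‘Lapins’ and 0 in ‘Rainier’. The exact interval of either ratio starts at 1.33 times higher in ‘Lapins’. In leaf the kinase had 10 reads in ‘Lapins’ and 1 in ‘Rainier’ and was called, while the hydrolase had 0 and 2. A WD repeat-containing 7-like gene had 5 and 0, with an interval from 1.03. In the other direction cyclic dof factor 3, a repressor of flowering genes in Arabidopsis, had 0 reads in ‘Lapins’ and 5 in ‘Rainier’ and an interval that starts at 0.812 for ‘Rainier’ over ‘Lapins’ and so includes equal shares. A NEP1-interacting-like gene, a leishmanolysin homolog and phospholipase D Z-like had 0 and 4 each, with intervals from 0.585. ‘Bing’ fruit held reads of 6 of these 7 genes, phospholipase D Z-like being the exception. None reached the 10 fruit reads that a call in fruit required. The genes were picked for a count of 0 in 1 fruit, so their intervals are not a test of a difference.

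Among genes without a description, the smallest Z-test p values belonged to abundant genes. Pav_sc0001124.1_g450.1.mk had 235 reads in ‘Lapins’ fruit and 5 in ‘Rainier’ fruit, or 31.6 and 0.596 per 10000, a share 53.1 times higher in ‘Lapins’ (exact 95% interval 22.4 to 165). ‘Bing’ fruit had 91 reads (7.83 per 10000), and the leaves of ‘Bing’, ‘Lapins’ and ‘Rainier’ 0, 1 and 0, so its reads lay almost wholly in fruit. Pav_sc0000107.1_g100.1.mk had 327 and 46 reads, or 44.0 and 5.48 per 10000, 8.02 times higher in ‘Lapins’ (5.88 to 11.2). In ‘Bing’ fruit it had 164, between the others at 14.1 per 10000.

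In the other direction, Pav_sc0005810.1_g020.1.mk had 340 reads in ‘Lapins’ fruit and 1331 in ‘Rainier’ fruit, or 45.7 and 159 per 10000, a share 3.47 times higher in ‘Rainier’ (3.08 to 3.92). ‘Bing’ fruit had 305 reads (26.2 per 10000), nearer to ‘Lapins’, and the leaves held 0 to 1. Pav_sc0001882.1_g070.1.mk had 208 and 645 reads, or 28.0 and 76.8 per 10000, 2.75 times higher in ‘Rainier’ (2.35 to 3.23), with 217 in ‘Bing’ fruit. Non-specific matches added 41 and 100 reads to the latter and 3 and 33 to the former, so both share sequence with other predicted genes and their counts are less certain.

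Over all 188 genes called higher in ‘Lapins’, the ‘Bing’ fruit share was nearer on the log scale to ‘Lapins’ for 79 (42.0%) and nearer to ‘Rainier’ for 109 (58.0%). Over the 152 called higher in ‘Rainier’, it was nearer to ‘Rainier’ for 90 (59.2%) and nearer to ‘Lapins’ for 62 (40.8%). These counts describe the ‘Bing’ library beside genes chosen from the others and carry no test. The percent nearer to ‘Rainier’ was alike in both sets, and no such percent over all genes stands beside it.

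**Figure D3:**
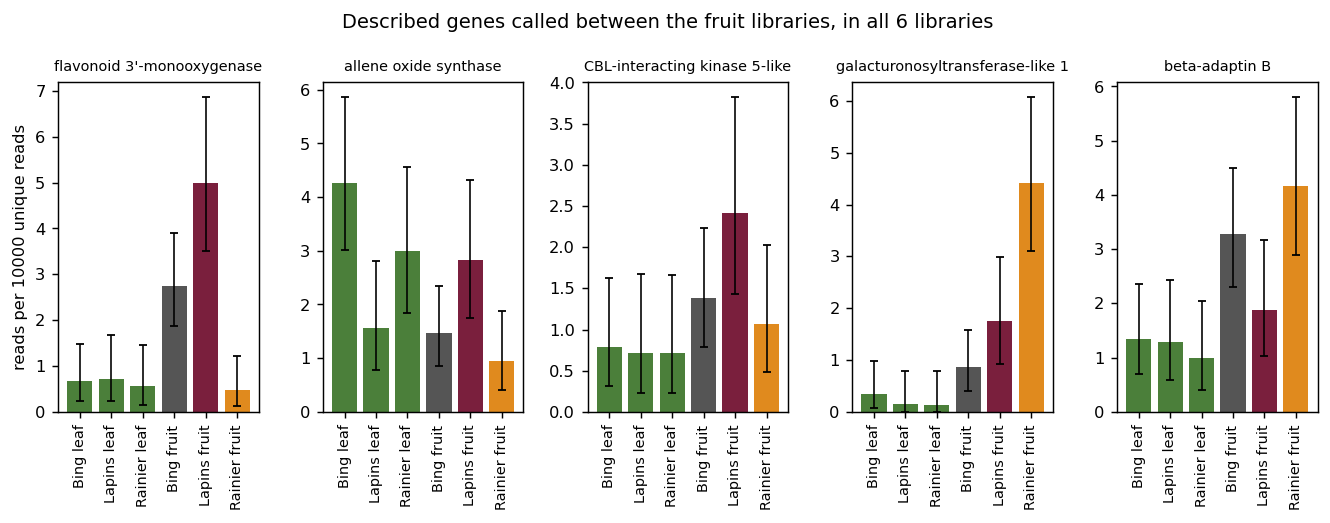
Reads per 10000 unique reads in each of the 6 libraries for the 5 described genes called between the fruits, each panel with its own axis from 0 and with exact 95% intervals for counting error. Flavonoid 3′-monooxygenase is at 4.98 in ‘Lapins’ fruit and 0.476 in ‘Rainier’ fruit beside 0.570 to 0.714 in the leaves, and galacturonosyltransferase-like 1 peaks at 4.41 in ‘Rainier’ fruit.

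How far the fruit libraries lay apart, counting error included, depended on how often a gene was read. Of 1612 genes with 10 to under 20 reads summed over both fruits, 27.4% were at least 2-fold apart, and the median absolute log2 ratio was 0.62. Of 343 genes with 50 to under 100 reads, 8.45% were at least 2-fold apart, with a median of 0.35, and of 119 genes with 100 to under 200 reads 6.72%, with a median of 0.36. Among the 51 genes with 200 reads or more, 6 (11.8%) were at least 2-fold apart and the median was 0.46. Counting error alone would give the log2 ratio a standard deviation of 0.83 at 10 to under 20 reads. At 200 reads or more it would give 0.18. The part beyond counting error was 0.57, 0.66, 0.53, 0.42 and 1.06 from the lowest to the highest read level, with no steady fall. In the leaf libraries of the same cultivars, 32.5% of genes with 10 to under 20 reads, 18.6% with 50 to under 100 and 5.17% with 200 or more were at least 2-fold apart.

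**Figure D4:**
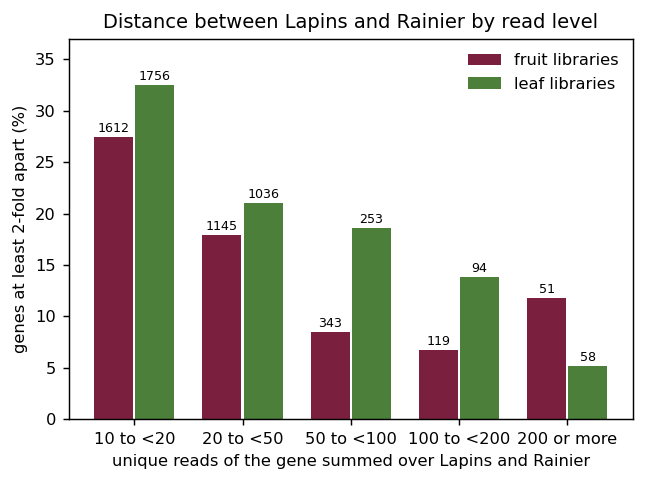
Percent of genes whose share differed at least 2-fold between ‘Lapins’ and ‘Rainier’ (vertical), by reads summed over the pair (horizontal), for the fruit and the leaf libraries, with the number of genes over each bar. In fruit the percent falls from 27.4 at 10 to under 20 reads to 6.72 at 100 to under 200 reads and is 11.8 in the 51 genes with 200 or more. The percent includes counting error, which is larger at fewer reads.

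Leaves of the same cultivars and sites give a comparison that shares no library with the fruit. The same criteria called 415 of 1966 genes in leaf (21.1%), 222 higher in ‘Lapins’ and 193 higher in ‘Rainier’. Of the 340 fruit calls, 120 had at least 10 reads in a leaf library, and 21 of these (17.5%) were called in leaf in either direction. Over all 1039 genes with that depth in both tissues, 192 (18.5%) were called in leaf, a share near that of the fruit calls. In all, 11 genes were called in both tissues in the same direction, 8 higher in ‘Lapins’ and 3 higher in ‘Rainier’, which is 3.24% of the fruit calls and 2.65% of the leaf calls. A further 10 were called in opposite directions (2.94% and 2.41%). Of the 120, 54 (45.0%) had the leaf share higher in the same cultivar as in fruit. Over the 1039 genes, 475 (45.7%) did. No read was found in either leaf library for 25 of the fruit calls.

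The difference between the fruit and the leaf ratio was itself tested for the 1039 genes with a Wald test on the log ratios, for counting error alone. It passed at an adjusted p under 0.05 for 43 genes (4.14%), with the fruit ratio of ‘Lapins’ to ‘Rainier’ above the leaf ratio in 31 and below it in 12. Of the 43, 18 were called in fruit, against 120 of all 1039. The test uses the same fruit ratio as the call, so a larger share among the 43 is built in. Of the 43, 0 had a description, and at most 39 of the 1039 could have one. An unadjusted p under 0.05 in the Wald test was found for 219 genes. The described genes with the smallest adjusted p, allene oxide synthase and chorismate mutase 2, lay just above the threshold.

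**Figure D5:**
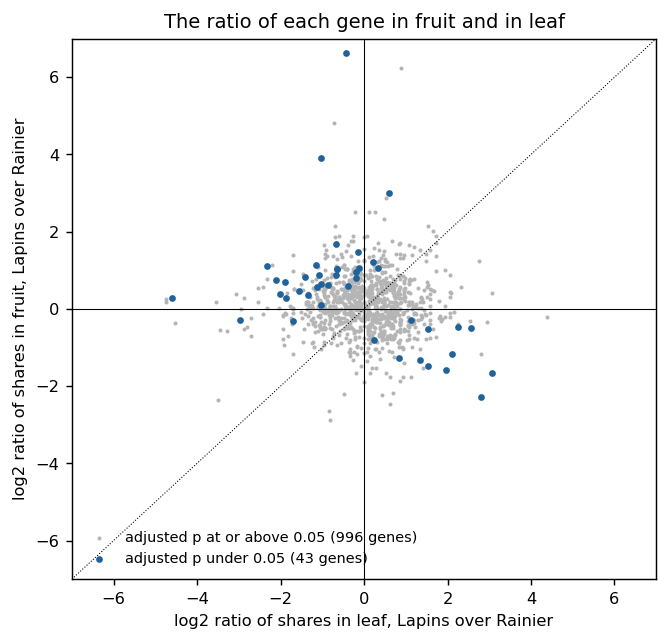
Log2 ratio of shares, ‘Lapins’ over ‘Rainier’, in leaf (horizontal) and in fruit (vertical) for the 1039 genes with at least 10 reads in a library of each pair, with the 43 genes whose ratios differed at an adjusted p under 0.05 in blue and the dotted line at equal ratios. The points form a round cloud about 0 with no visible tilt along the dotted line, and 475 of the genes (45.7%) have both ratios on the same side of 0.

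A fit over all 6 libraries, with tissue and cultivar as terms, asked which genes differed between ‘Lapins’ and ‘Rainier’ in leaf and fruit alike. It takes its error from the spread between libraries. Of 1864 genes tested by edgeR's quasi-likelihood test, 0 passed at an adjusted p under 0.05 (0%), 27 had an unadjusted p under 0.05, and DESeq2 called 1 gene. Of the 340 genes called in fruit, 161 were tested, with beta-adaptin B and allene oxide synthase as the 2 described members. Flavonoid 3′-monooxygenase did not pass its filter on low counts. As the fit adds fruit and leaf as separate libraries of a cultivar, a difference that occurs in fruit alone counts in it as spread.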

How the data were processed

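RNA of leaves and fruits was sequenced by 454 FLX in 6 libraries. As the methods state, the authors trimmed the reads and mapped them in CLC Genome Workbench 11.0.1 to 43673 predicted genes (similarity 0.9, length fraction 0.6, costs of 3, unspecific match limit 10). They deposited whole-number counts per gene, of unique and of total reads, without normalisation. The TPM and RPKM columns were not used.

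Here unique reads were compared with the Z-test of Kal et al. (two-sided), with exact (Clopper-Pearson) 95% intervals of each ratio. Log ratios had 0.5 added. The Wald test was adjusted (Benjamini-Hochberg) over 1039 genes. The 6 libraries were fitted in edgeR 4.0.16 (TMM, filterByExpr, Benjamini-Hochberg) and DESeq2 1.42.0, in R 4.3.3. scipy 1.17.1 was used for the exact intervals. Scripts were tested on simulated reads. edgeR p-values set a difference against the spread between libraries that tissue and cultivar leave over. That spread may be technical, and with no replicate library it also holds any cultivar difference that depends on tissue.

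Names came from 428 described of 581 annotation rows. The reference gene table matched no identifier. The 15 gene lists and the members were chosen with earlier results of these data known. Named were every described called gene, up to 3 most-read members of a list, all read CYP82 genes, up to 5 described genes per direction read in 1 fruit alone, and 2 genes per direction without description by smallest p with the most read gene. The text gives a part of these. Alternatives covered read minimums, Fisher's exact test, adjusted p, a ratio of 3, TMM and upper-quartile sizes, the sum without the most read genes, total reads, thinning, no filter, DESeq2 and leaving out each ‘Lapins’ or ‘Rainier’ library.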

Additional observations from a re-analysis of the deposited data

Results flagged for a closer look

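For 1 named gene the ratio of ‘Lapins’ to ‘Rainier’ differed between the tissues by a test of that difference. Pav_sc0000107.1_g100.1.mk, which has no description here, had 327 reads in ‘Lapins’ fruit and 46 in ‘Rainier’ fruit, and 17 and 11 in their leaves. The log2 ratio was 2.99 in fruit and 0.61 in leaf, with an adjusted p = 4.65e-03 from the Wald test, which covers counting error alone. Its reads were higher in ‘Lapins’ in both tissues, but the leaf difference was not a call. The leaf intervals overlapped, at 1.41 to 3.88 per 10000 in ‘Lapins’ and 0.782 to 2.80 in ‘Rainier’. ‘Bing’ had 164 reads in fruit and 40 in leaf.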

How the results depend on the processing

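The number of fruit calls moved with the criteria. Against 340, there were 96 calls with at least 10 reads in both libraries (another reading of the read minimum in the methods), 166 with at least 20 in 1 of them, 605 with no minimum, 190 at a ratio of at least 3, 44 with the p adjusted over genes with reads and 29 with it adjusted over all genes. All of these but the 605 are subsets of the 340 by construction. Calls higher in ‘Lapins’ were 75.9% of the 29 and 55.3% of the 340. Fisher's exact test, other scalings, total reads and thinning gave 322 to 353, but not always of the same genes. Of the 340 genes, 286 kept their call and direction under thinning and 321 with upper-quartile sizes. Without the 10 most read genes of either library 311 kept them, and under the other settings 322 to 337. The side with more calls turned without the 10 most read genes of either library, with 159 higher in ‘Lapins’ and 175 higher in ‘Rainier’. Of the 9 named genes that were called, each under 12 alternatives, the call was kept in 88 of 108 cases and lost in 20, and no direction turned. Among these, galacturonosyltransferase-like 1, beta-adaptin B and allene oxide synthase were lost with an adjusted p and at a ratio of 3. Diacylglycerol kinase 2 and PIAL2 became calls under some scalings or thinning. The median of the translation list was 0.71 with at least 20 reads summed, where it rests on the initiation factor alone, against 0.42. Leaf calls fell to 51 with the p adjusted over genes with reads. In the fit over leaf and fruit, 3 genes passed with no filter on low counts and 1 with DESeq2, and leaving out 1 library gave 0 to 3 genes, the 3 being without ‘Lapins’ leaf. The cause was not tested. That fit holds tissue as a term and so pairs the libraries by tissue, and each group holds a single library. Depth limits all of this: 157 of the 196 described genes read had under 10 reads in both fruits, a share near the 81.3% of all genes read.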
